A study of Mus musculus with 19 samples.

Results

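The 9 genes described here, *Pf4*, *Itga2b*, *Vwf*, *Gp1bb*, *Gp9*, *Selp*, *Cd9*, *Nfe2* and *Treml1*, are megakaryocyte and platelet genes taken as a fixed list of symbols from the 54352 genes in each count file. All 9 were found in every file, and 8 of them had a mean of at least 10 counts over the libraries. RNA sequencing was carried out on 19 libraries of bone marrow progenitors from mice reconstituted with C57BL6 stem cells that carried a doxycycline-inducible shRNA. The 9 libraries of common myeloid progenitors (CMP) were 4 with the control shRNA against *Renilla* luciferase, 3 with the *Spehd* shRNA labelled 12928-10 (sh10) and 2 with that labelled 12928-20 (sh20). The 10 libraries of the Lin-, Sca1+, Kit+ population (LSK, KLS in some labels) were 4 Renilla, 3 sh10 and 3 sh20. *Spehd* is a long noncoding RNA.

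Every group, the Renilla controls included, was given doxycycline food for 6 days after 10 weeks of reconstitution. The shRNA was in each case carried by a doxycycline-responsive vector that reports it by zsGreen, and zsGreen+ cells were sorted. The recipients were young adult, sub-lethally irradiated C57BL/6-CD45.1;cKit-w41 animals of both sexes, which have a weakened stem cell compartment of their own, and no competitor cells were given. The labels do not state whether replicates came from separate animals, so the p-values below measure the spread between these samples, which may be partly technical. *Spehd* has no row under that name in the count files, and its level was not analysed here.

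Megakaryocytes are the large marrow cells that shed platelets. Their program is driven by GATA1, FLI1, RUNX1 and NF-E2, and it loads granules with factors that platelets release and covers the membrane with adhesion receptors. Part of this program is already transcribed in stem cells and early progenitors, among which a platelet-primed fraction is known. The 9 genes cover several roles. *Nfe2* encodes the blood-restricted subunit of the NF-E2 transcription factor, required for platelet release. *Itga2b* encodes the alpha chain (CD41) of the fibrinogen receptor. *Gp9* and *Gp1bb* encode subunits of the receptor for von Willebrand factor, and *Vwf* encodes that factor. *Pf4* encodes a chemokine of the alpha granule. *Selp* and *Treml1* encode membrane proteins that are stored in alpha granules and reach the surface on activation, and *Cd9* encodes a tetraspanin of the platelet membrane.

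The promoters of the genes on which the shRNA comparisons below turn, *Gp9* and *Treml1*, are shown first, with those of *Pf4* and *Itga2b*, which were called in the control comparison in every alternative analysis. They come from RefSeq (GRCm38.p6, 250 bases before to 50 after the start site), in which 7 of the 9 genes matched; *Vwf* and *Nfe2* did not. Capitals mark words searched on both strands: AGATAA or TGATAA for GATA factors, AGGAAG or CGGAAG for ETS factors such as FLI1, TGTGGT for RUNX factors and TGAGTCA for NF-E2; no hit overlapped another.
Gp9 (chr6:87777820-87778119, plus strand): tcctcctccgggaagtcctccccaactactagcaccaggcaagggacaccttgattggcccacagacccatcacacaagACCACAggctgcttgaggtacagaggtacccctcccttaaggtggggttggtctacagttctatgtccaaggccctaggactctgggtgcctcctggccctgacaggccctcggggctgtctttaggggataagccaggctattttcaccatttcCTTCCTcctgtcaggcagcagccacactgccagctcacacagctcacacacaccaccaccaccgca
Treml1 (chr17:48359666-48359965, plus strand): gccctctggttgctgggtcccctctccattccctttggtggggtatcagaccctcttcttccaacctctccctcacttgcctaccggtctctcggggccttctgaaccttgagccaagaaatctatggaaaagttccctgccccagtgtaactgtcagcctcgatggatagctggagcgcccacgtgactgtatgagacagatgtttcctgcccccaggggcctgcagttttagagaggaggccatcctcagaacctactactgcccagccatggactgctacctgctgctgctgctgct
Pf4 (chr5:90772185-90772484, plus strand): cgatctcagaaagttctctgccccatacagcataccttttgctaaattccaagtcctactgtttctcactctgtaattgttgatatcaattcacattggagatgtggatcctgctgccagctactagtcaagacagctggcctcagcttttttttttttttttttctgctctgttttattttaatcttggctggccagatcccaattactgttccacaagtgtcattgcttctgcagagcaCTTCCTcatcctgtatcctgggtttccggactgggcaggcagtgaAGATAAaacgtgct
Itga2b (chr11:102469834-102470133, minus strand): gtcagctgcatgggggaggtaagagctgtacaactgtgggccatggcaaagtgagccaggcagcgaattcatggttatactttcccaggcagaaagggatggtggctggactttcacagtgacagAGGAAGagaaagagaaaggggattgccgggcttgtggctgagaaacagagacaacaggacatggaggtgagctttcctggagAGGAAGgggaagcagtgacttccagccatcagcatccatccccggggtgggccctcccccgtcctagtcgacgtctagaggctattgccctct

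The ETS word lay in 6 of the 7 matched promoters, all except that of *Treml1*. It was found in 46.5% of the 32851 promoters in the same table. The GATA word was found in *Pf4* only, 36 bases after the start site, against 18.6% of all promoters, and the RUNX word in *Gp9* only, against 16.8%. The NF-E2 word was in none of the 7 and in 5.20% of all promoters. These are matches of letters in a 300-base window and not evidence of binding.

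Library totals ran from 3647318 to 5965155 counts assigned to genes, with a median of 4918631. They differed between groups: CMP Renilla libraries had 3857980 to 4314959 counts, CMP sh10 libraries 4918631 to 5228700 and CMP sh20 libraries 5680969 to 5965155. No pair of replicates agreed within sampling noise. Stem cell and erythroid markers differed between the sorted populations: the summed level of 9 stem cell markers was 592 to 701 in LSK Renilla in normalised read counts (CPM, the share of the library's counts scaled to TMM library sizes) and 232 to 242 in CMP Renilla, and that of 12 erythroid markers was 149 to 365 in LSK Renilla and 1453 to 1854 in CMP Renilla. Of the 9 stem cell markers 5 were lower in CMP Renilla by the test used below, whereas *Mllt3* had a higher mean there (68.5 against 49.9 CPM). *Ly6a*, the gene of the Sca1 gate, had 39.9 to 60.0 CPM in LSK Renilla and 3.16 to 7.61 in CMP Renilla. The 10 granulocyte and monocyte markers, however, summed to 1233 to 1495 CPM in LSK Renilla and 530 to 791 in CMP Renilla, and the 7 mast cell and basophil markers to 363 to 751 and 125 to 182, so that these myeloid lists were higher in LSK than in the myeloid progenitors. Mature neutrophil markers, although the LSK gate is lineage-negative, summed to 4.23 to 291 CPM in LSK Renilla, 64.7 to 275 in LSK sh10 and 3.12 to 6.90 in LSK sh20.

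Levels between genes were compared as CPM per kilobase of exonic sequence. In CMP Renilla the mean was 151 ± 22.1 for *Pf4*, 126 ± 16.3 for *Itga2b*, 111 ± 3.54 for *Nfe2*, 93.1 ± 13.2 for *Cd9*, 72.2 ± 22.0 for *Gp9*, 50.9 ± 25.8 for *Treml1*, 20.0 ± 12.4 for *Selp*, 13.6 ± 9.53 for *Vwf* and 0.491 ± 0.371 for *Gp1bb* (SD, n = 4). The libraries of neighbours in this order overlapped, except between *Nfe2* and *Cd9* and between *Vwf* and *Gp1bb*. In LSK Renilla the order began with *Nfe2* at 110 ± 10.9, followed by *Pf4* at 84.6 ± 25.3, *Itga2b* at 79.4 ± 9.43 and *Cd9* at 70.6 ± 6.94, and *Selp*, at 41.5 ± 11.7, stood above *Treml1*, at 11.7 ± 1.70 (SD, n = 4). *Gp1bb* gave only 0 to 21 counts a library. Of its exonic bases 91.1% are shared with *Sept5* on the same strand and 41.5% with *Gm49601*, and reads that fit several genes are left out by the counting, so that its transcript may be more abundant than these counts.

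**Figure D1:**
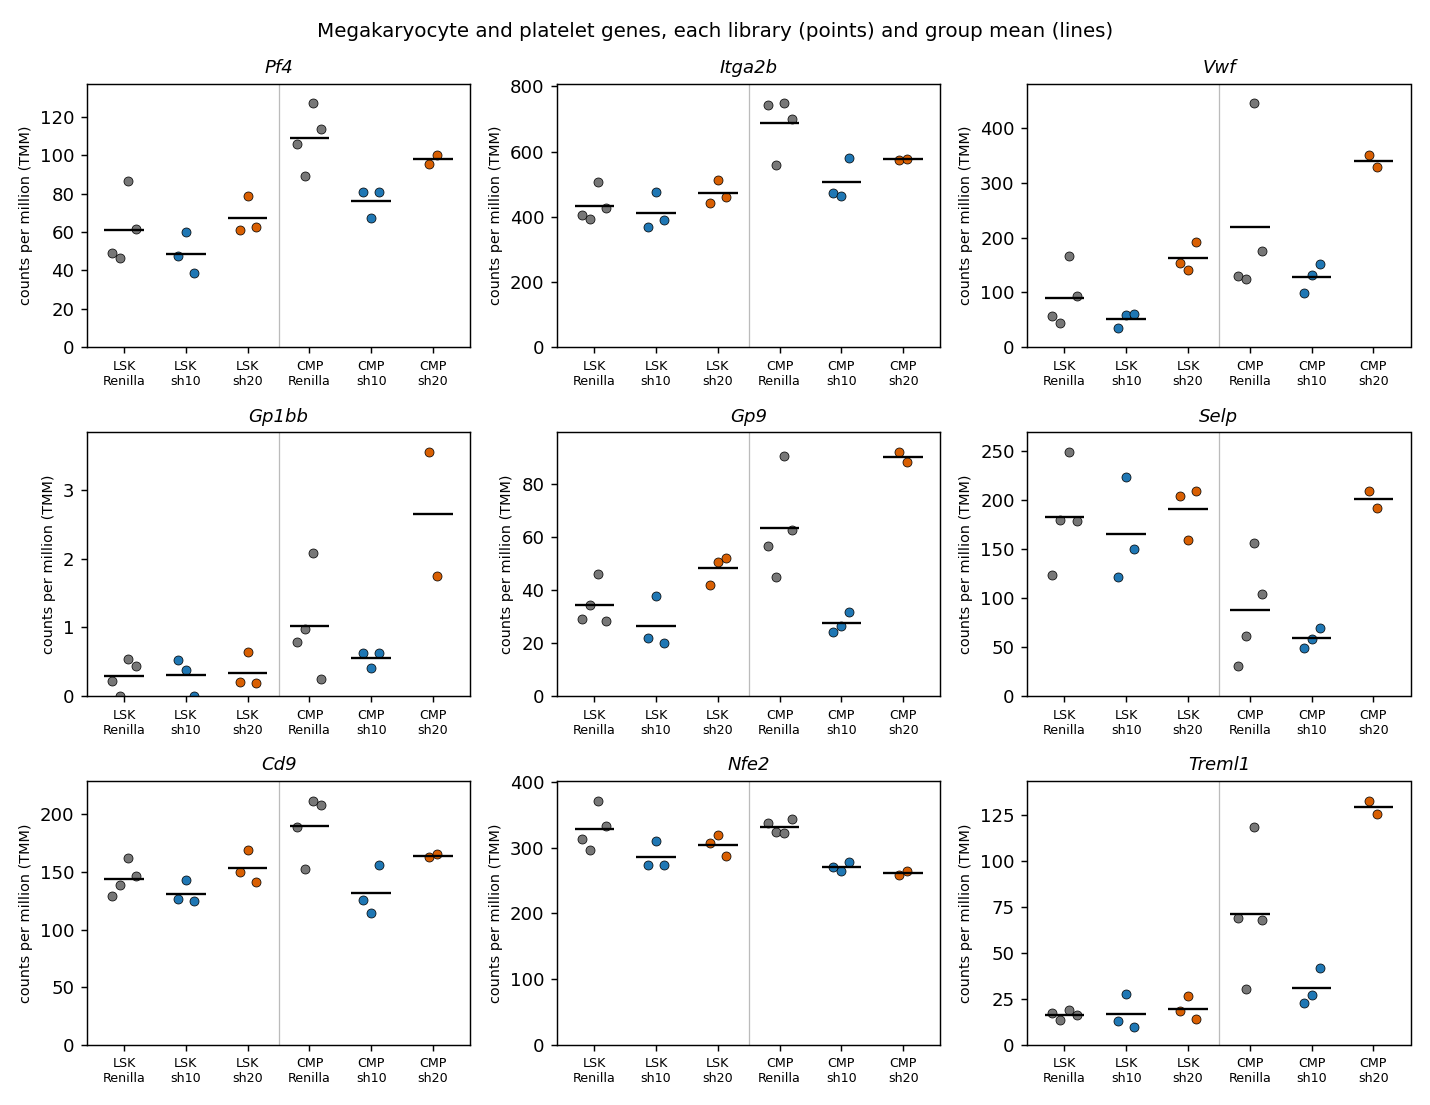
Level of each of the 9 genes in CPM (vertical axis) in every library (points), by cell type and shRNA, with group means as lines. Among the CMP libraries, *Gp9*, *Treml1*, *Vwf* and *Selp* are highest in both sh20 libraries and in Renilla replicate C. *Nfe2* is lower in all 5 CMP *Spehd* libraries than in the 4 CMP Renilla libraries.

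The first comparison asked how the genes differ between CMP and LSK carrying the control shRNA. *Treml1*, *Vwf*, *Gp9*, *Pf4*, *Itga2b* and *Cd9* were higher in CMP and *Selp* was lower. Thus 7 of the 9 genes passed the test, where 19.8% of the 15066 genes tested did (edgeR quasi-likelihood test, adjusted p under 0.05). The median log2 fold change of the 9 was 0.84, and that of all genes tested was -0.02. In bulk libraries, more cells of a type and more RNA per cell cannot be told apart.

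*Treml1* showed the largest difference of the called genes. It had 69.0, 30.2, 119 and 67.7 CPM in CMP Renilla replicates A to D and 17.5, 13.3, 18.8 and 16.2 in LSK Renilla replicates A to D. Every CMP library exceeded every LSK library, and the log2 fold change was 2.12 (SE 0.37, adjusted p = 0.000874), or 4.34-fold. *Itga2b* had 744, 559, 749 and 700.2 CPM in CMP and 405, 394, 508 and 426 in LSK. Its groups did not overlap either, with a log2 fold change of 0.67 (SE 0.11, adjusted p = 0.000537). *Pf4* had 106, 88.9, 127 and 114 CPM in CMP and 49.0, 46.6, 86.5 and 61.8 in LSK, again without overlap, though LSK replicate C came just below the lowest CMP library. Its log2 fold change was 0.84 (SE 0.19, adjusted p = 0.00464). These 3 genes passed the test in all 25 alternative analyses.

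*Gp9* had 56.6, 44.8, 90.5 and 62.6 CPM in CMP Renilla and 28.9, 34.3, 46.1 and 28.5 in LSK Renilla, a log2 fold change of 0.89 (SE 0.23, adjusted p = 0.0129). *Vwf* had 130, 124, 446 and 175 CPM in CMP and 56.0, 44.8, 166 and 92.6 in LSK, a log2 fold change of 1.29 (SE 0.41, adjusted p = 0.0327). In both genes the groups overlapped. Replicate C was the highest Renilla library in both cell types for these genes and for the other members, except for *Nfe2* in CMP. Without CMP Renilla C the log2 fold change of *Vwf* was 0.69 (adjusted p = 0.179) and that of *Gp9* 0.68 (adjusted p = 0.0588). *Vwf* also lost its call without LSK Renilla A, B or D, with adjusted p from 0.0640 to 0.102. *Cd9* rose by 0.40 (SE 0.12, adjusted p = 0.0242), from 129 to 163 CPM in LSK to 153 to 212 in CMP, and it lost its call without CMP Renilla A, C or D or LSK Renilla A or B, with adjusted p from 0.0518 to 0.0801.

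*Selp*, the adhesion molecule P-selectin, ran the other way. It had 30.3, 61.6, 156 and 104 CPM in CMP Renilla and 123, 180.0, 249 and 179 in LSK Renilla, a log2 fold change of -1.05 (SE 0.34, adjusted p = 0.0404). CMP replicate C lay above LSK replicate A. The call was lost in 9 of the 19 analyses that each left out 1 library (CMP Renilla A, B or D, LSK Renilla B, C or D, or any CMP sh10 library), with adjusted p from 0.0518 to 0.124. *Nfe2* had 322 to 344 CPM in CMP and 296 to 372 in LSK, a log2 fold change of 0.02 (SE 0.07, adjusted p = 0.912), and *Gp1bb*, with 1 to 9 counts in CMP and 0 to 2 in LSK, gave 1.76 (SE 0.92, adjusted p = 0.198). With log2 total counts in the model *Selp* (adjusted p = 0.0510) and *Cd9* (adjusted p = 0.0593) lost their calls. The count of 7 fell to 4 without CMP Renilla C and to 4 without LSK Renilla B, where 17.0% and 15.3% of all genes were called.

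Of 60 further genes of the megakaryocyte program, chosen by role, 58 were tested in this fit. In CMP Renilla 16 were higher and 7 lower, where 1663 and 1316 of all 15066 genes tested were. The median log2 fold change of the 58 was 0.01. Transcription factors gave 4 higher of 10, among them *Gata1*, the lineage factor shared with erythroid cells, at 2.07 (SE 0.17, adjusted p = 5.15e-07), and 1 lower. *Fli1* had a log2 fold change of -0.14 (adjusted p = 0.655). At a mean level of 50 counts or more, the largest rises were those of *F2rl2*, a thrombin receptor of mouse platelets, at 2.37, *Clu*, the secreted chaperone clusterin, at 2.34, and *Ppbp*, the precursor of an alpha granule chemokine, at 2.33, with adjusted p from 0.000625 to 0.00906. The largest falls were those of *F13a1*, the factor XIII subunit that monocytes also make, at -2.90, *Nbeal2*, needed for alpha granules, at -1.25, and *F2rl3*, another thrombin receptor, at -0.78. In the same comparison 10 of 12 erythroid markers were higher and 9 of 10 granulocyte and monocyte markers lower. The part of these other lineages in the result was not tested.

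The same step was then compared with the *Spehd* shRNAs. With sh10, 1 of the 9 genes passed the test, where 16.1% of 15066 genes did, and with sh20 2 did, where 14.6% did. *Selp* was lower in sh10 CMP than in sh10 LSK by -1.49 (SE 0.40, adjusted p = 0.0174), with 49.0, 58.1 and 69.3 CPM against 121, 224 and 150 and no overlap. With sh20 the log2 fold change of *Selp* was 0.07 (SE 0.43, adjusted p = 0.943), with 209 and 192 CPM in CMP against 205, 160 and 209 in LSK. With sh20, *Treml1* was higher in CMP by 2.72 (SE 0.46, adjusted p = 0.000755) and *Gp9* by 0.90 (SE 0.29, adjusted p = 0.0461). With sh10 their values were 0.86 (SE 0.42, adjusted p = 0.178) and 0.05 (SE 0.27, adjusted p = 0.924).

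*Vwf* gave log2 fold changes of 1.33 with sh10 and 1.06 with sh20 (adjusted p = 0.0657 and 0.167), close in size to the 1.29 with Renilla. *Pf4* gave 0.65 and 0.53 (adjusted p = 0.0510 and 0.142), and *Itga2b* 0.30 and 0.28 (adjusted p = 0.123 and 0.192). *Cd9* gave 0.01 and 0.10 and *Nfe2* -0.07 and -0.22, none past the test. The sh10 call of *Selp* was lost without CMP sh10 A or B or LSK sh10 B, with adjusted p from 0.0666 to 0.0761. Leaving out 1 library gave 0 to 3 calls with sh10: 0 without CMP sh10 A or B (10.1% and 8.59% of all genes called), 2 without CMP Renilla C, LSK Renilla B, CMP sh20 B or C, and 3 without LSK sh10 B or LSK Renilla C. With sh20 it gave 1 call, that of *Treml1*, without any of 14 of the 19 libraries (all CMP sh10, CMP sh20 and LSK sh20 libraries, CMP Renilla A and D, LSK Renilla A, B and D, and LSK sh10 A), and 2 otherwise. With sh10, 9 of the 58 further genes were higher and 9 lower in CMP, and with sh20 13 were higher and 3 lower, where 1131 and 1293 of all 15066 genes were with sh10 and 895 and 1302 with sh20.

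**Figure D2:**
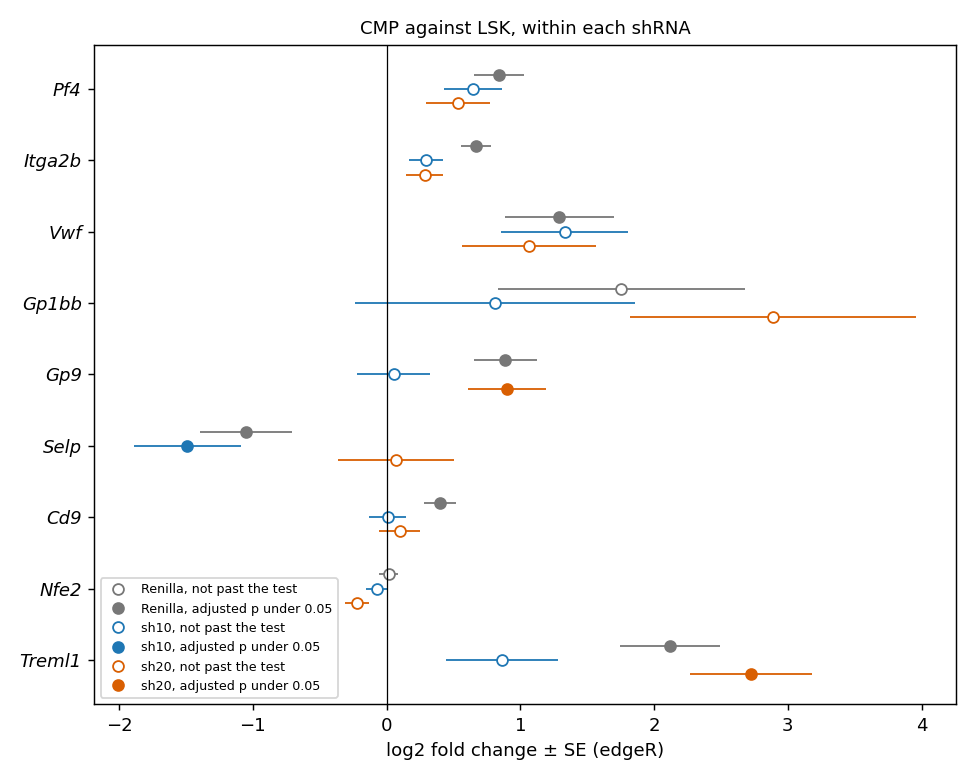
Log2 fold change of CMP over LSK (horizontal axis) with its standard error for each gene, within Renilla (grey), sh10 (blue) and sh20 (orange) libraries; filled points passed the test. *Treml1* lies at 2.12 with Renilla, 0.86 with sh10 and 2.72 with sh20, and *Selp* at -1.05, -1.49 and 0.07.

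Whether the knockdown differed between CMP and LSK was tested as an interaction. None of the 9 genes passed for both shRNAs together, for sh10 or for sh20, where 0.0531%, 0.0199% and 0.584% of 15066 genes did. At an unadjusted p under 0.05 there were 2 (*Itga2b*, *Cd9*), 4 (*Itga2b*, *Gp9*, *Cd9*, *Treml1*) and 1 (*Itga2b*) of the 9, where 10.1%, 7.76% and 13.8% of all genes were. DESeq2 also called none of the 9, where it called 0.567%, 0.111% and 1.88% of genes. The largest of these differences was that of *Treml1* for sh10, -1.25 (SE 0.56, adjusted p = 0.639). *Selp* had a difference of 1.12 for sh20 (SE 0.55, adjusted p = 0.372).

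Knockdown within CMP was compared first with both *Spehd* shRNAs as 1 group. *Nfe2* was lower upon knockdown and was the 1 gene called of the 8 tested, where 0.116% of 12912 genes were called; *Gp1bb* was filtered out. *Nfe2* had 338, 324, 322 and 344 CPM in CMP Renilla, 271, 265 and 278 with sh10 and 259 and 264 with sh20. All 5 knockdown libraries were below all 4 controls, with a log2 fold change of -0.31 (SE 0.05, adjusted p = 0.0470). The other 7 had values from -0.39 for *Cd9* (SE 0.14, adjusted p = 0.198) to 0.40 for *Selp* (SE 0.55, adjusted p = 0.798). The call of *Nfe2* was lost without any single CMP library other than sh20 B, with adjusted p from 0.0527 (sh20 C) to 0.216 (Renilla D). The count over all genes, 15, varied widely as well, with 328 by upper quartile normalisation, 364 from the fit of all libraries in 6 groups, 0 with the replicate block and 0 to 264 (without sh20 B) when 1 CMP library was left out. DESeq2 called 882 of 9054 genes (9.74%).

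*Nfe2* also followed library depth. Its raw count varied little, from 1282 to 1620 over all 19 libraries (1.26-fold), while totals varied 1.64-fold. Within groups, the deviation of its log2 CPM from the group mean correlated with that of log2 total counts at r = -0.95 over the 19 libraries, which share the total as the divisor of the CPM. Of the 10484 genes averaging at least 50 counts, 0.362% had an r this low or lower, and the median gene had 0.04. The other members had r of -0.81 for *Pf4*, -0.70 for *Itga2b*, -0.53 for *Cd9*, -0.47 for *Gp9*, -0.41 for *Treml1*, -0.36 for *Vwf* and -0.08 for *Selp*. With log2 total counts in the model the change of *Nfe2* was -0.05 (adjusted p = 0.976). All CMP *Spehd* libraries were deeper than all CMP Renilla libraries, so that depth and knockdown cannot be told apart within CMP.

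**Figure D3:**
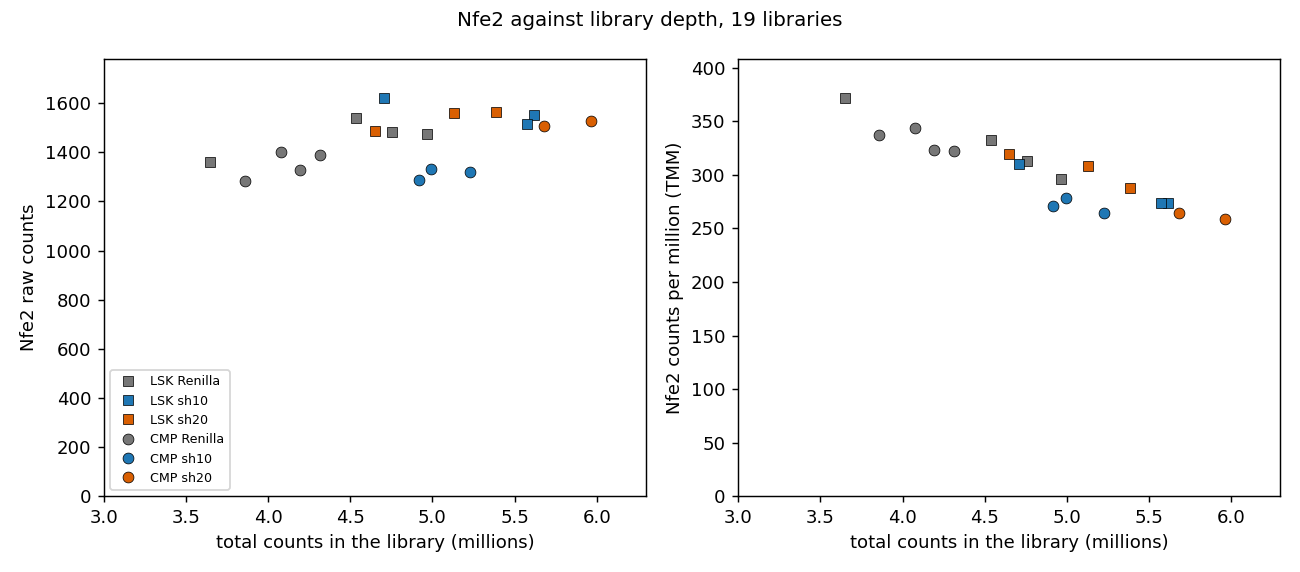
Raw count (left) and CPM (right) of *Nfe2* against the total counts (horizontal axis) of each of the 19 libraries, with CMP as circles and LSK as squares and colours for the shRNA. The raw count stays between 1282 and 1620 while the CPM falls from 372 in the shallowest library to 259 in the deepest.

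Taken 1 at a time, the shRNAs gave different pictures in CMP. With sh10 each of the 9 lay below Renilla in log2 fold change, and *Gp9* and *Nfe2* were called lower, 2 of 9 where 1.97% of 13824 genes were called. The median of the 9 was -0.59 and that of all genes -0.01. With sh20 the signs were mixed, 5 positive and 4 negative with a median of 0.52, and *Nfe2* alone was called (-0.33, SE 0.06, adjusted p = 0.0125), where 6.17% of 13824 genes were called. The 2 comparisons share the 4 Renilla libraries.

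*Gp9* had 24.2, 26.5 and 31.7 CPM with sh10 against 56.6, 44.8, 90.5 and 62.6 in Renilla. The sh10 libraries were all lower, with a log2 fold change of -1.22 (SE 0.23, adjusted p = 0.0376), or 0.430 of the control level. With sh20 it had 92.2 and 88.3 CPM, near the highest control, and 0.52 (SE 0.24, adjusted p = 0.228). *Treml1* had 22.9, 27.3 and 42.0 CPM with sh10 and 133 and 126 with sh20. Its values against Renilla were -1.22 (SE 0.40, adjusted p = 0.122) and 0.87 (SE 0.41, adjusted p = 0.227). Both sh20 libraries were above every Renilla library, whereas the sh10 libraries overlapped Renilla replicate B.

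*Selp* likewise had 209 and 192 CPM with sh20, above every Renilla library, and 1.20 (SE 0.45, adjusted p = 0.143), against -0.59 with sh10 (adjusted p = 0.481). *Vwf* had 350.1 and 328 CPM with sh20 and 98.9, 132 and 152 with sh10, or 0.64 (adjusted p = 0.416) and -0.79 (adjusted p = 0.323); its Renilla libraries ran from 124 to 446. *Pf4*, *Itga2b* and *Cd9* were less spread. With sh10 their values were -0.52, -0.45 and -0.53 (adjusted p = 0.0758, 0.0687 and 0.0728), and with sh20 they were -0.14, -0.24 and -0.20 (adjusted p = 0.608, 0.275 and 0.465). *Nfe2* was at -0.29 (SE 0.05, adjusted p = 0.0260) with sh10.

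Single libraries decided these counts. For sh10 the count of 2 was 0 without any sh10 library or without Renilla A or D, 1 without Renilla C, 4 without sh20 C, 5 without sh20 B and 6 without Renilla B; the call of *Gp9* was lost in 6 of the 9 analyses, with adjusted p from 0.0519 to 0.169. The share of all genes called for sh10 moved too, from 0.0659% without sh10 B to 6.99% without sh20 C, as it did for sh20, from 3.13% without Renilla B to 21.9% without sh20 C. For sh20 the count of 1 became 3 without Renilla C, when *Vwf* had 1.26 (adjusted p = 0.0165) and *Selp* 1.64 (adjusted p = 0.0496). With log2 total counts in the model none of the 9 was called for either shRNA, where 0.00664% of all genes were for sh10 and 0.133% for sh20, and *Gp9* had -0.87 (adjusted p = 0.641) with sh10. In that model the sh10 values of *Pf4*, *Itga2b* and *Nfe2* were -0.01, -0.17 and -0.09, in place of -0.52, -0.45 and -0.29, and the sh20 values of *Pf4*, *Itga2b* and *Cd9* were positive, at 0.71, 0.21 and 0.13. DESeq2 called 6 of the 9 with sh10, where it called 8.83% of 13698 genes, and 1 with sh20, where it called 11.1% of 15441. With the replicate letter as a block none of the 9 was called for either shRNA, and the shares of all genes are in the closing section.

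**Figure D4:**
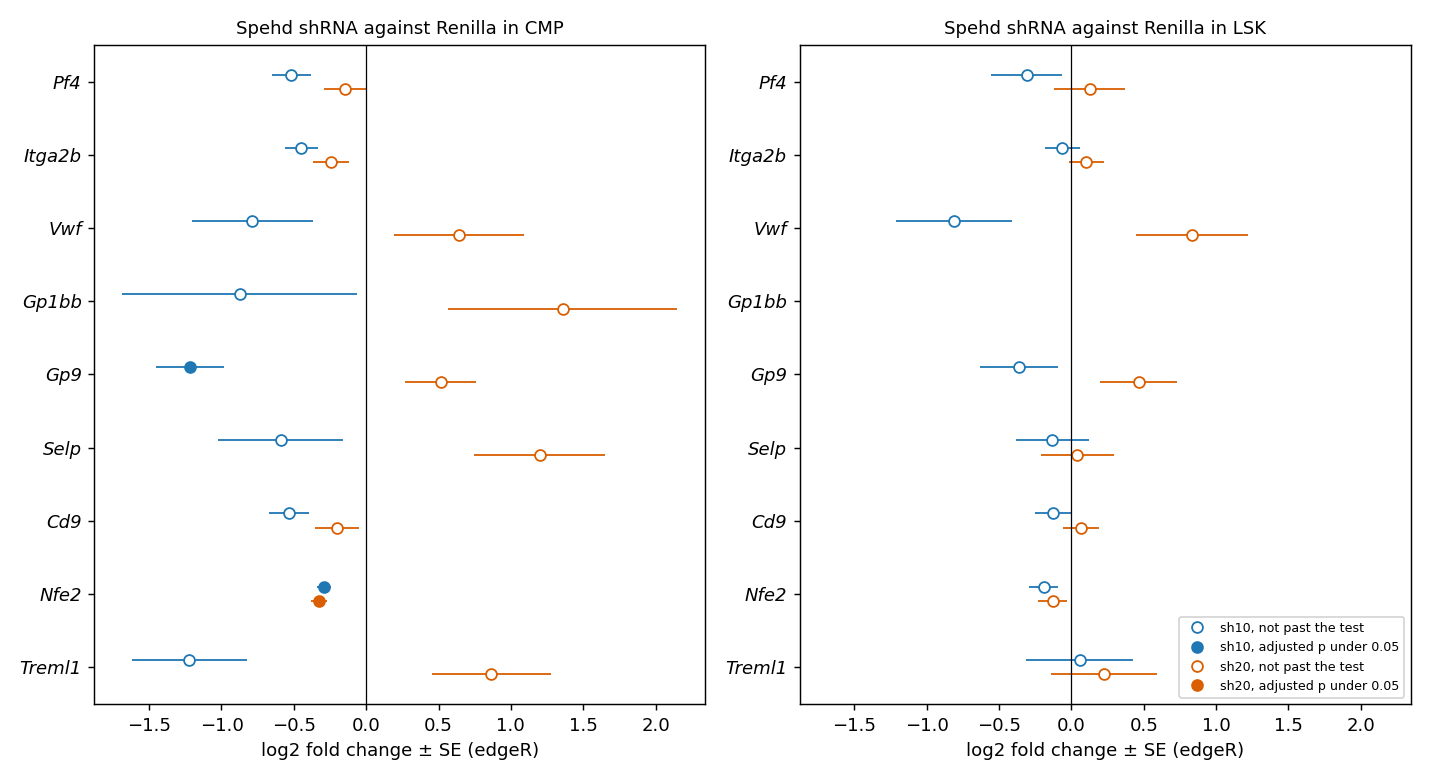
Log2 fold change against Renilla (horizontal axis) with its standard error for each gene with sh10 (blue) and sh20 (orange), in CMP (left) and LSK (right); filled points passed the test and *Gp1bb* was not tested in LSK. In CMP all 9 sh10 values are negative, and *Gp9* lies at -1.22 with sh10 and 0.52 with sh20.

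The shRNAs were therefore compared directly in CMP, without the shared controls in the contrast. *Treml1* and *Gp9* were higher with sh20 than with sh10, 2 of the 9 genes, where 6.41% of 13824 genes were called. *Treml1* differed by 2.09 (SE 0.45, adjusted p = 0.0310), or 4.25-fold, and *Gp9* by 1.73 (SE 0.26, adjusted p = 0.0129), or 3.32-fold. Of the other 7, *Gp1bb* had 2.23 (adjusted p = 0.146; 10 and 21 counts against 2 or 3), *Selp* 1.79 (SE 0.49, adjusted p = 0.0591), *Vwf* 1.43 (SE 0.48, adjusted p = 0.0981), *Pf4* 0.37, *Cd9* 0.33, *Itga2b* 0.20 and *Nfe2* -0.04. The median of the 9 was 1.43 and that of all genes 0.00. In 7 of the 9 genes both sh20 libraries lay above all 3 sh10 libraries, in *Nfe2* both lay below, and in *Itga2b* they overlapped. Of the 13824 genes tested, 18.5% had both sh20 libraries above all sh10 libraries and 23.8% had both below. DESeq2 called 3 of the 9 in this comparison and 13.3% of 14860 genes.

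Both calls were lost without sh10 A, where *Treml1* had 1.92 (adjusted p = 0.112) and *Gp9* 1.65 (adjusted p = 0.0550), and without sh10 B, where they had 2.02 (adjusted p = 0.110) and 1.72 (adjusted p = 0.0550). *Treml1* also lost its call without sh10 C (2.37, adjusted p = 0.0609). With the replicate letter as a block neither gene was called. The share of all genes called was 0.999% without sh10 A, 0.615% without sh10 B and 23.9% without sh20 C. Without Renilla C, which is not in the contrast but enters the estimate of the spread, 4 genes passed, *Selp* (adjusted p = 0.0406) and *Vwf* (adjusted p = 0.0143) among them.

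Of 57 further genes of the program tested, 12 were higher with sh20 than with sh10 and 1 was lower, with a median of 0.55, where 6.41% of all genes were called in either direction. The 12 were 4 of 11 receptors and adhesion genes, 2 of 9 alpha granule genes, 4 of 15 activation and signalling genes and 2 of 7 cytoskeleton and release genes, but 0 of 10 transcription factors. At a mean level of 50 counts or more the largest differences were those of *Clu* at 3.14 (adjusted p = 0.0290), *Mylk*, myosin light chain kinase, at 2.33 (adjusted p = 0.0337) and *Itgb3*, the beta chain that pairs with the *Itga2b* product, at 1.85 (adjusted p = 0.0473). *Stat5a*, a transcription factor activated by cytokine receptors, was the gene that was lower (-0.39, adjusted p = 0.0377). *Gata1* had -0.11 (adjusted p = 0.378) and *Fli1* 0.60 (adjusted p = 0.105).

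Against Renilla, sh10 gave 1 of the 57 genes higher and 4 lower, and sh20 0 higher and 1 lower, where 1.97% and 6.17% of all genes were called. With sh10 *F13a1* rose by 3.21 (adjusted p = 0.0350), from 7.61 to 10.4 CPM in Renilla to 70.5 to 95.7. Among the 4 that were lower, *Bin2*, a membrane-binding protein, had -0.44 (adjusted p = 0.0298), *Rap1b*, a GTPase of integrin activation, -0.40 (adjusted p = 0.0376) and *Fermt3*, the integrin activator kindlin-3, -0.25 (adjusted p = 0.0263). With both shRNAs as 1 group none of 55 passed.

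Markers of other lineages were measured in the same CMP libraries. Of all 13824 genes tested, 1.97% were called for sh10 against Renilla, 6.17% for sh20 against Renilla and 6.41% between the shRNAs. The summed level of the 9 stem cell markers was 156 to 173 CPM with sh10, 232 to 242 with Renilla and 271 to 282 with sh20, with 1 of 8 tested higher with sh20 than with sh10. The genes of the list differed in direction: between Renilla and sh20 the mean of *Ctnnal1* went from 40.6 to 76.3 CPM, whereas those of *Mecom*, *Slamf1* and *Fgd5* went from 35.4 to 19.7, from 23.1 to 18.3 and from 1.78 to 0.339, and *Fgd5* was at 0 in 1 sh20 library. The 10 granulocyte and monocyte markers summed to 981 to 1222 CPM with sh10, 530 to 791 with Renilla and 714 to 730.0 with sh20, with 1 of 9 tested higher with sh10 than with Renilla and 1 lower with sh20 than with sh10. *Irf8*, a monocyte and dendritic cell factor, had a mean of 305 CPM with sh10 and 83.5 with Renilla. The 12 erythroid markers summed to 1547 to 1888, 1453 to 1854 and 1789 to 1819, with overlap between the groups. None of the 12 was called between the shRNAs or for sh10 against Renilla, and for sh20 against Renilla 2 were higher and 2 lower. The 6 genes of the sort gates (*Kit*, *Ly6a*, *Cd34*, *Fcgr3*, *Flt3*, *Il7r*) summed to 1269.5 to 1433 CPM with sh10, 1104 to 1318 with Renilla and 805 to 962 with sh20, where the sh20 libraries lay below all others, with 1 of 6 called lower with sh20 in each of its comparisons. *Cd34*, the stem and progenitor cell antigen, had a mean of 187 CPM with sh20, 329 with sh10 and 342 with Renilla. *Kit*, the largest part of each sum, had means of 544, 758 and 712 CPM in the same order. The means of *Flt3* and *Il7r* were also lowest with sh20. Those of *Fcgr3*, at 23.8, 9.44 and 11.9 CPM, and *Ly6a*, at 5.70, 3.04 and 5.17, were highest with sh20. The 8 lymphoid markers summed to 448 to 647 CPM with sh10, 389 to 543 with Renilla and 368 to 407 with sh20, with 2 of 6 tested lower with sh10 than with Renilla, 1 lower with sh20 than with Renilla and 1 higher with sh20 than with sh10. The 7 mast cell and basophil markers summed to 160.5 to 199 CPM, 125 to 182 and 126 to 163 in the same order, with 1 of 6 tested higher with sh10 than with Renilla, 1 lower with sh20 than with Renilla and 1 lower with sh20 than with sh10. The part of these populations in the differences between shRNAs was not tested.

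**Figure D5:**
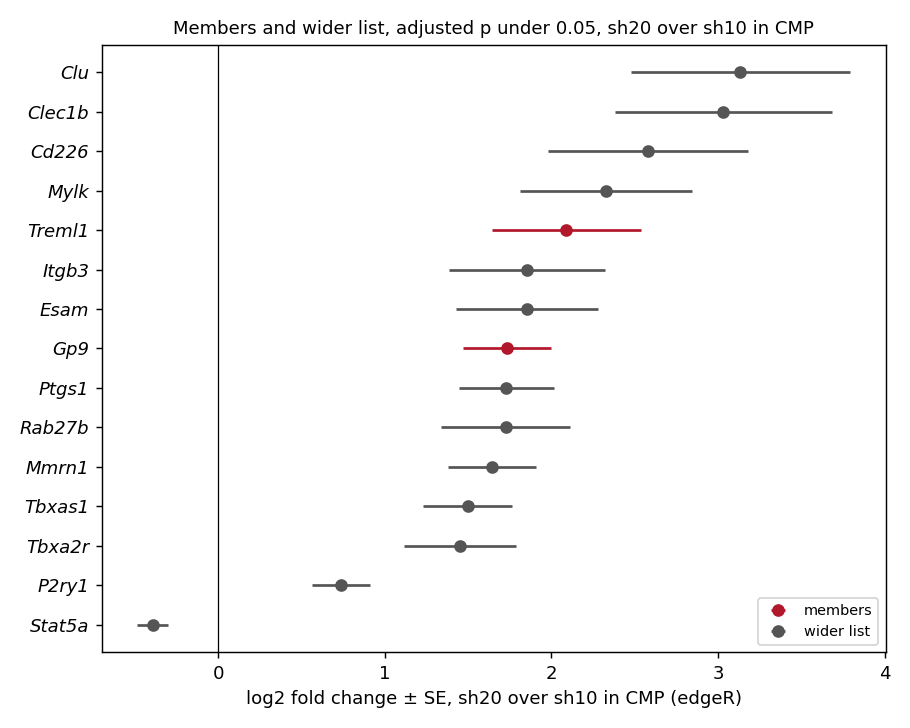
Log2 fold change of sh20 over sh10 in CMP (horizontal axis) with its standard error, for the 2 members (red) and the 13 genes of the wider list (grey) that passed the test. All lie to the right of 0 except *Stat5a* at -0.39.

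In LSK no gene passed the test for both shRNAs together (0% of 13441), for sh10, for sh20 or between the shRNAs (0% of 13828 each; edgeR quasi-likelihood test). At an unadjusted p under 0.05 there were 492, 457, 1152 and 1268 genes. None of the 8 members tested reached that level in the first 3 comparisons, and *Vwf* and *Gp9* did between the shRNAs. DESeq2 called 1 member, *Vwf*, between the shRNAs (adjusted p = 0.0127), where it called 1.47% of 17428 genes. It called no member in the other 3, where its shares were 0% for both shRNAs together, 0.00986% for sh10 and 1.16% for sh20.

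*Vwf* had 153, 140 and 193 CPM with sh20, 34.2, 58.2 and 59.6 with sh10 and 56.0, 44.8, 166 and 92.6 with Renilla in LSK. All sh20 libraries exceeded all sh10 libraries, and the Renilla libraries spanned both. The log2 difference between the shRNAs was 1.64 (SE 0.43, adjusted p = 0.223), beside 1.43 in CMP. *Gp9* had 41.8, 50.7 and 52.2 CPM with sh20 and 21.9, 37.7 and 20.1 with sh10, a difference of 0.83 (SE 0.29, adjusted p = 0.394), beside 1.73 in CMP. *Pf4* also did not overlap, with 61.1, 78.7 and 62.8 against 47.4, 60.1 and 38.7 CPM and a difference of 0.44 (adjusted p = 0.671), beside 0.37 in CMP. The share of all genes without overlap was not determined in LSK. In CMP, with fewer sh20 libraries, 18.5% of genes lay wholly above with sh20 and 23.8% wholly below.

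The CMP and LSK libraries are separate, so these values do not share samples, although both cell types may have come from the same animals. *Treml1* and *Selp* differed between the shRNAs by 0.17 each in LSK (SE 0.39 and 0.27, adjusted p = 0.941 and 0.905), beside 2.09 and 1.79 in CMP. Against Renilla in LSK, sh10 values ran from -0.81 for *Vwf* (SE 0.40) to 0.06 for *Treml1* and sh20 values from -0.13 for *Nfe2* to 0.83 for *Vwf* (SE 0.39), with adjusted p of at least 0.617. Stem cell markers summed to 417 to 591 CPM with sh10, 592 to 701 with Renilla and 599 to 793 with sh20, with overlap between Renilla and sh20 and none of 9 called in any LSK comparison. Neutrophil markers, given above, were lowest with sh20. Their part in these values was not tested.

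The members tracked each other across libraries only in part. Within CMP, levels of *Gp9* and *Treml1* correlated at r = 0.95, *Vwf* and *Treml1* at 0.90, *Vwf* and *Selp* at 0.89 and *Pf4* and *Cd9* at 0.95 (log2 CPM, 9 libraries). *Nfe2* gave 0.76 with *Itga2b*, 0.69 with *Cd9* and 0.63 with *Pf4*, but -0.12 with *Vwf* and -0.31 with *Selp*. Within LSK the first 4 pairs gave 0.62, 0.32, 0.63 and 0.93, and *Nfe2* gave 0.51 with *Vwf* and 0.54 with *Selp* (10 libraries). *Selp* gave -0.25 with *Pf4* over all 19 libraries but 0.41 within CMP and 0.62 within LSK. These are descriptions over libraries that share groups, totals and normalisation.

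Over the 19 libraries the 5 genes outside the list whose log2 CPM was most like the mean standardised level of the 8 members with at least 10 counts, among 10476 candidates averaging at least 50 counts, were *Unc119* (r = 0.87), *Rsu1* (0.86), *Fbxo9* (0.85), *Gadd45g* (0.85) and *Cmas* (0.84). The mean standardised level was highest in CMP Renilla C (1.46) and lowest in LSK sh10 A (-1.13). Among LSK libraries it was highest in Renilla C (0.52).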

How the data were processed

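The authors aligned the reads to mm10 with STAR 2.5.2a at default settings, dropped duplicates by Picard 1.131 and assigned reads to genes of GENCODE vM11 by HTSeq 0.7.2. Duplicate removal can compress high levels in libraries made from little RNA by SMART-Seq v4. The deposited counts, 1 file per library, were used as they stand. The HTSeq summary rows that name no gene, 72.0% to 77.7% of all rows' sum, were left out of library sizes and tests; reads in no annotated feature were 51.9% to 53.8% of uniquely aligned reads. Whether the kit marks strand is not given in the sources used here. A table of values normalised by the authors was not used.

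Counts were tested with edgeR 4.0.16 (R 4.3.3) by quasi-likelihood tests after TMM normalisation and filterByExpr (minimum count 10, minimum total 15), with Benjamini-Hochberg adjustment over all genes tested and a threshold of 0.05. CMP against LSK and the interactions came from 1 fit of all 19 libraries in 6 groups, and knockdown within a cell type from its 9 CMP or 10 LSK libraries. SE is the log2 fold change divided by the square root of its F statistic. CPM uses TMM library sizes over the 19 libraries, log2 CPM has a prior count of 2, and lengths come from GENCODE vM21 on GRCm38. Figures were drawn with matplotlib. The scripts were tested on simulated data. The members, gene lists and rules were chosen with earlier results of these data known: all 9 genes are named in each comparison, and of the wider list the 3 largest rises and falls averaging at least 50 counts, with *Gata1*, *Fli1*, *Itgb3* and *Ppbp* open to naming; 1 further gene is not reported here and was left out of that list. The alternatives, with DESeq2 1.42.0 among them, are given in the closing section.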

Additional observations from a re-analysis of the deposited data

Results flagged for a closer look

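The effects of the *Spehd* shRNAs in CMP differed from each other in 2 of the 9 genes by a direct test in edgeR, which called 6.41% of 13824 genes. Both calls were lost without sh10 A, without sh10 B and with the replicate block. *Gp9* differed by 1.73 on the log2 scale (sh20 over sh10, adjusted p = 0.0129), and *Treml1* by 2.09 (adjusted p = 0.0310). In both genes both sh20 libraries were above all 3 sh10 libraries. In none of the 9 did a difference of the knockdown effect between CMP and LSK pass the test (edgeR).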

How the results depend on the processing

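Each comparison was repeated with DESeq2's size factors in edgeR, with upper quartile normalisation, without the filter on low counts, with DESeq2, with the replicate letter as a block, with library depth (log2 of the total) as a covariate over all libraries, and without each library in turn. No called direction turned in any of the 2382 gene-level repeats of 121 values, of which 2253 kept their side of the threshold, 78 lost it and 51 gained it.

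Genes called for CMP against LSK with Renilla, 7, numbered 6 with upper quartile (17.4% of all genes called), 6 without the filter (8.58%), 5 with the depth covariate (16.7%) and 4 to 7 when 1 library was left out. With sh10 the count of 1 became 3 without the filter (7.84%), 3 with DESeq2 (20.3%), 2 with the replicate block (14.7%) and 2 with the depth covariate (17.7%), and 0 to 3 without 1 library. With sh20 the count of 2 became 1 with upper quartile (14.2%), 3 without the filter (8.70%), 1 with the replicate block (11.8%) and 4 with the depth covariate (11.1%), and 1 to 2 without 1 library. For both shRNAs against Renilla in CMP the count of 1 became 0 with DESeq2's size factors (0.108%) and 0 without the filter (0.0967%). It became 2 with DESeq2 (*Nfe2* and *Itga2b*, 9.74%), 0 with the replicate block (0%) and 0 with the depth covariate, and 0 to 1 without 1 library. For sh10 in CMP the count of 2 became 6 without the filter (2.66%), 6 with DESeq2 (8.83%), 0 with the block (0.0362%) and 0 with the covariate (0.00664%), and 0 to 6 without 1 library. For sh20 in CMP the count of 1 became 2 without the filter (4.04%), 0 with the block (0%) and 0 with the covariate (0.133%), and 1 to 3 without 1 library. Between the shRNAs in CMP the count of 2 became 4 without the filter (4.95%), 0 with the block (0.203%) and 4 with the covariate (3.87%), and 0 to 4 without 1 library. Between the shRNAs in LSK the count of 0 became 1 without the filter and 1 with DESeq2 (1.47%), *Vwf* each time. The count stayed at 0 without any 1 library. The sh20 effect in CMP minus LSK gave 1 in place of 0 without the filter (*Selp*), where 1.37% of all genes were called. The other 5 comparisons, all with 0 calls, stayed at 0. The causes were not tested.

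The replicate letters are not stated to pair the samples. Deviations from group means of libraries with the same letter and shRNA in the other cell type correlated at 0.00306 to 0.259 over 9 pairs (median 0.0435, 3 over 0.1), against -0.214 to 0.131 over 22 pairs of other letters (median -0.032), and those with the same letter in another shRNA group of the same cell type at -0.175 to 0.156 over 16 pairs, so not every pair was over 0.1 and the block was not used in the main analysis. *Gp1bb*, with 0 to 21 counts a library, passed no test in the main analysis.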
